A study of Homo sapiens with 4 samples.

Results

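Untreated A549 cells carrying a short hairpin RNA (shRNA) against LIMA1 were compared with untreated A549 cells carrying a negative control shRNA, gene by gene. A549 is an established human lung carcinoma line of epithelial origin, grown here in RPMI medium with 10% fetal calf serum. Both hairpins were delivered by lentivirus and kept stably, and 1 RNA library was made from each line. The series holds 4 libraries in all: the same lines were also given nutlin-3a at 10 uM, a small molecule that keeps MDM2 from binding p53, and RNA was taken at 24 h. The titles of the samples say si, but their protocols speak of shRNA, which is the word kept here. Of 42113 gene models in the files, 12503 (29.7%) had a mean of at least 30 normalised fragment counts over the 2 untreated libraries, and these are the genes measured here. Every value below is a normalised fragment count: the values themselves look like counts of sequenced fragments divided by 1 size factor per library and not by gene length, which no label or header states, and the counting intervals rest on that reading. Levels are therefore compared between libraries and not between genes.

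EPLIN, the product of LIMA1, is an actin-binding protein with a LIM domain that sits along actin filaments, bundles them and slows their turnover, and that helps to tie the actin belt of epithelial cells to cadherin junctions. A short hairpin RNA is cut by Dicer into a small duplex, and 1 strand of it guides Argonaute to messages with a matching site. Other messages with partial matches can be affected by any hairpin, and with a single hairpin against a single control, such effects and those of the target cannot be told apart. The sources used here do not say whether the lines were pools of infected cells or clones, and the hairpin sequences were not used here.

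The difference of a gene is log2(value + 1) with LIMA1 shRNA minus log2(value + 1) with control shRNA, and calls of higher or lower genes were made from 1 upward and from -1 downward. There was 1 library per group, so no test was made, no p-value exists, and each difference compares these libraries rather than the conditions. The interval beside a difference or ratio is the exact 95% Clopper-Pearson interval of the fragment counts and covers counting error only. In RNA from a whole culture, fewer cells of a kind and less RNA per cell cannot be told apart.

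The libraries held 16.7 M fragments with control shRNA and 16.5 M with LIMA1 shRNA. LIMA1 stood at 416 with control shRNA and 68.3 with LIMA1 shRNA, 6.09-fold lower (4.71 to 7.97), and at 866 and 133 in the nutlin-3a pair. The target was therefore low in both libraries that carry its name. The 9 epithelial and A549 markers were present in all 4 libraries, and CDKN2A, which this line is known to have lost, had 0 fragments in each, against a floor of 3 fragments (2.83 normalised counts with control shRNA, untreated). Of the 5 blood cell markers CD3E had 0 fragments in all 4 libraries and PTPRC had 0 in 3 of them, whereas CD68, a lysosomal protein of macrophages, was at 664 and 613, and at 897 and 860.3 with nutlin-3a. LYZ, lysozyme, was at 3.97 and 22.8, and at 3.22 and 21.7 with nutlin-3a. Their part in the results was not tested.

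Most of the transcriptome differed little. The differences had a median of 0.03 and a standard deviation across genes of 0.43, and 11018 genes (88.1%) lay within 0.5 of 0. There were 111 genes called higher (0.888% of those measured) and 228 called lower (1.82%). For 50 higher genes (0.4%) and 88 lower genes (0.704%) the whole counting interval lay beyond 2-fold. Calls thinned out with level: among the 1066 genes with a mean from 30 to 60 there were 43 higher and 100 lower, while among the 511 genes at 5000 or above there were 0 higher and 2 lower. The standard deviation across genes fell with them, from 0.89 to 0.26.

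**Figure D1:**
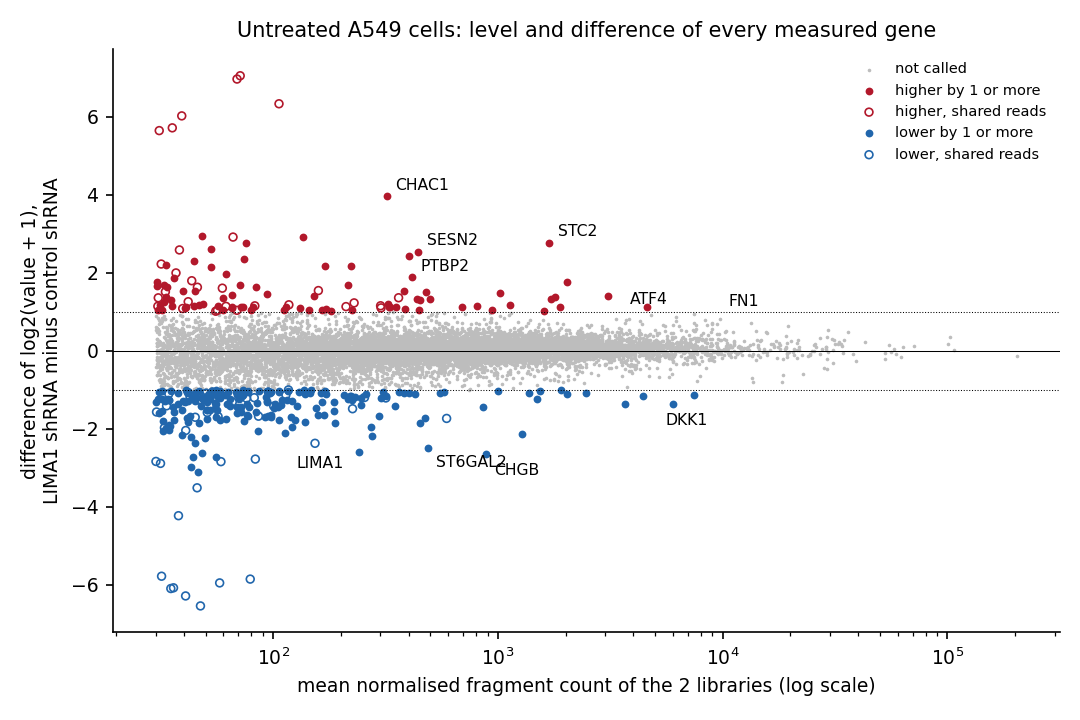
Each point is 1 of 12503 genes, with its mean normalised fragment count over the 2 untreated libraries on a log scale (x) and its difference on the log2(value + 1) scale (y). Dotted lines mark differences of 1 and -1, filled coloured points are called genes and open ones are called genes with shared reads. CHAC1 stands highest among genes without shared reads, CHGB, LIMA1 and ST6GAL2 are low, and all points that lie more than 5 from 0 are open circles.

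Part of the widest differences came from genes whose deposited value was not a whole number of fragments, as happens when reads are divided between overlapping or near-identical gene models. They are called genes with shared reads here, a reading of the values that no label or header states. They made up 1416 of the 8745 measured genes that could be checked (16.2%), and 30 of the 111 higher and 44 of the 228 lower genes. All 6 genes higher by at least 5 and all 7 lower by at least 5 were of this kind. Values above 0 and under 0.5 fragments were also counted as not whole, so this reading and a very wide difference are not independent. C9orf69, picked after its values were seen, was listed at 1.63 and 210.5 in the untreated pair and at 509.8 and 1.20 in the nutlin-3a pair. The libraries with either hairpin thus hold both a high and a near-zero value of the same gene.

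Targets of the amino acid response had the highest median difference of the 46 gene lists read. When uncharged tRNA or another stress activates a kinase of eIF2alpha, general translation slows and the message of the transcription factor ATF4 is translated more. ATF4, as a dimer with a C/EBP protein, binds short composite elements in the promoters of genes for amino acid synthesis, uptake and tRNA charging, and of regulators such as DDIT3 and TRIB3. The related sensors IRE1 and ATF6 of the endoplasmic reticulum (ER) work through XBP1 and cleaved ATF6 and switch on chaperones. The 4 lists of the amino acid branch held 85 genes, of which 81 were measured: 13 were higher, 1 was lower and 65 lay above 0, with a median difference of 0.42. Over all measured genes 0.888% were higher, 1.82% were lower, 54.7% lay above 0 and the median was 0.03. These lists were drawn up with earlier results of these data known, so their counts describe the pattern and are not independent evidence for it.

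Among the 20 measured regulators and stress targets (of 22 listed) 8 were higher and 0 lower, 18 lay above 0, and the median was 0.83. CHAC1, an enzyme that breaks down glutathione, stood at 37.7 with control shRNA and 602 with LIMA1 shRNA, and at 56.6 and 85.8 in the nutlin-3a pair. The untreated LIMA1 shRNA library is the high one of the 4, with a difference of 3.96 (3.53 to 4.50) against 0.59 in the nutlin-3a pair. STC2, a secreted glycoprotein, was at 432 and 2949.8 untreated and at 176 and 468 with nutlin-3a. SESN2, a stress sensor that restrains mTORC1 and also a p53 target, was at 129 and 756 untreated and at 1035 and 1357 with nutlin-3a. In SESN2 both nutlin-3a libraries lie above both untreated ones, which is not so in CHAC1.

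DDIT3, the C/EBP-family factor CHOP, was at 124 and 679.8 untreated and at 172 and 242 with nutlin-3a. TRIB3, a pseudokinase that binds ATF4 and AKT, was at 1683 and 4467 untreated and at 1403 and 1622 with nutlin-3a. Both were highest in the untreated LIMA1 shRNA library and had small differences in the other pair (0.49 and 0.21). ADM2, a peptide hormone of the calcitonin family, was higher by 2.31 (14.1 against 74.2), JDP2, an AP-1 repressor, by 1.13 and CARS, the cysteinyl-tRNA synthetase, by 1.01. ATF4 itself was at 4580.1 and 7783, a difference of 0.76 (0.71 to 0.82) that was not called, and at 3429.7 and 4059 with nutlin-3a. The related factors were mixed: ATF3 was at 0.97 and CEBPG at 0.69, but ATF5 was at -0.61 and CEBPB was at 1349.8 and 1347, with a counting interval of the difference that includes 0.

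The enzymes of amino acid synthesis were mixed. All 25 listed genes were measured, their median was 0.21, and 5 were called higher and 1 lower. ASNS, which makes asparagine, was at 1001 and 2584 untreated and at 601 and 848 with nutlin-3a. PHGDH and PSAT1, the first enzymes of serine synthesis, were higher by 1.18 and 1.13, and PSPH, the last, by 0.44 (0.30 to 0.58), short of a call. CBS, which joins serine to homocysteine, was higher by 1.12 (222 against 483), whereas CTH, the next enzyme on the way to cysteine, was at -1.39 (354 against 135). This opposite pair was also seen with nutlin-3a, where CBS was at 1.02 and CTH at -1.61. The branched-chain aminotransferase BCAT1 was higher by 1.01. The mitochondrial folate enzymes MTHFD2 and ALDH1L2 were at 0.81 and 0.94 and the cytosolic MTHFD1 and SHMT1 at 0.19 and -0.04. The urea cycle enzymes ASS1 and ASL, which make arginine, lay on the low side at -0.99 and -0.56, with -0.59 and -0.60 in the nutlin-3a pair. PSPH, the folate enzymes, ASS1 and ASL were picked from the list after their values were seen.

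Of 17 measured amino acid transporters (of 19 listed) none was called in either direction, and 12 lay above 0 with a median of 0.24. SLC1A5, a neutral amino acid exchanger that carries glutamine, was at 0.79 (6113 against 10603), SLC1A4 and SLC43A1 each at 0.70, the cystine importer SLC7A11 at 0.66 and the arginine and lysine carrier SLC7A1 at 0.65. The subunits of the large neutral amino acid exchanger stood otherwise, SLC7A5 at -0.22 and its partner SLC3A2 at -0.07; these 2 and SLC7A1 were picked after their values were seen. SLC6A15 was lowest, at -0.81 (117 against 66.3).

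The 20 cytosolic aminoacyl-tRNA synthetases, which charge tRNAs, had 1 called gene, CARS, but 17 of 20 lay above 0 and the median was 0.42, against 0.10 in the nutlin-3a pair. They did not move by one amount. CARS, AARS and GARS were at 1.01, 0.94 and 0.93. MARS, YARS, TARS and NARS formed a middle range from 0.52 to 0.68. DARS, HARS, RARS, FARSA and FARSB lay between -0.13 and 0.05; TARS, NARS and these 5 were picked after their values were seen. AARS, which charges alanine tRNA, was at 5095 and 9807 untreated and 3323 and 4644 with nutlin-3a.

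The chaperone branch of the ER stress response was flat by comparison. Of 29 measured genes (of 30 listed) none was called, 17 lay above 0 and the median was 0.02, which turned to -0.02 with libraries scaled to equal totals. The main ER chaperone HSPA5 (BiP) was at 12833 and 14444, a difference of 0.17, and HSP90B1, PDIA4 and CALR were at 0.05, 0.01 and 0.07. XBP1 was at 0.20, and its target DNAJB9 was the lowest of the list at -0.62 (582 against 379). HERPUD1, ERN1 (which encodes IRE1) and ERO1L were at 0.43, 0.49 and 0.28. Heat shock proteins had 15 of 26 measured genes above 0, with a median of 0.08. Of these 26, 0 were higher and 1 was lower, against 0.888% and 1.82% of all measured genes. The lower one was HSPA2, a family member of germ cells, at 2085 and 472 (-2.14). HSPA8, which is constitutive, was at 33907 and 24595, and the inducible HSPA1A and HSPA1B were at -0.70 and -0.50, against -0.04, -0.03 and 0.21 with nutlin-3a. HSPB8, a small heat shock protein, was at 173 and 311, a difference of 0.84, and of 1.06 with nutlin-3a.

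**Figure D2:**
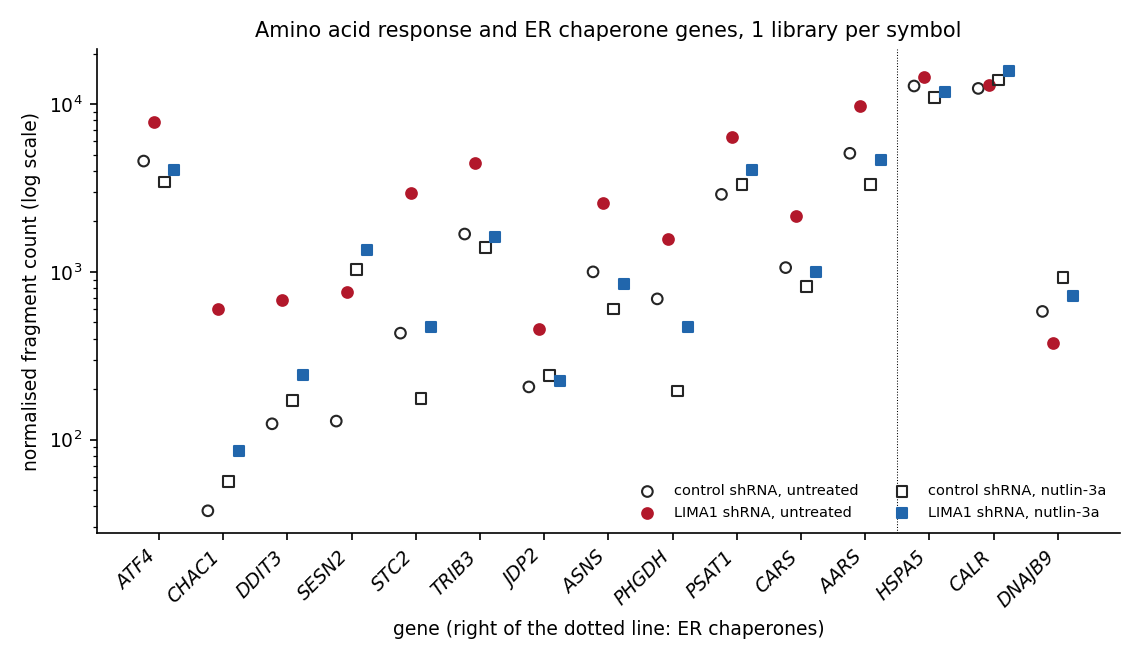
Normalised fragment counts on a log scale (y) of 12 amino acid response genes and, right of the dotted line, 3 ER genes (x), with 1 symbol for each of the 4 libraries. For CHAC1, DDIT3, STC2, TRIB3 and ASNS the filled circle of the untreated LIMA1 shRNA library lies above the other 3 symbols, and for HSPA5 and CALR the 4 symbols lie close together.

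**Figure D3:**
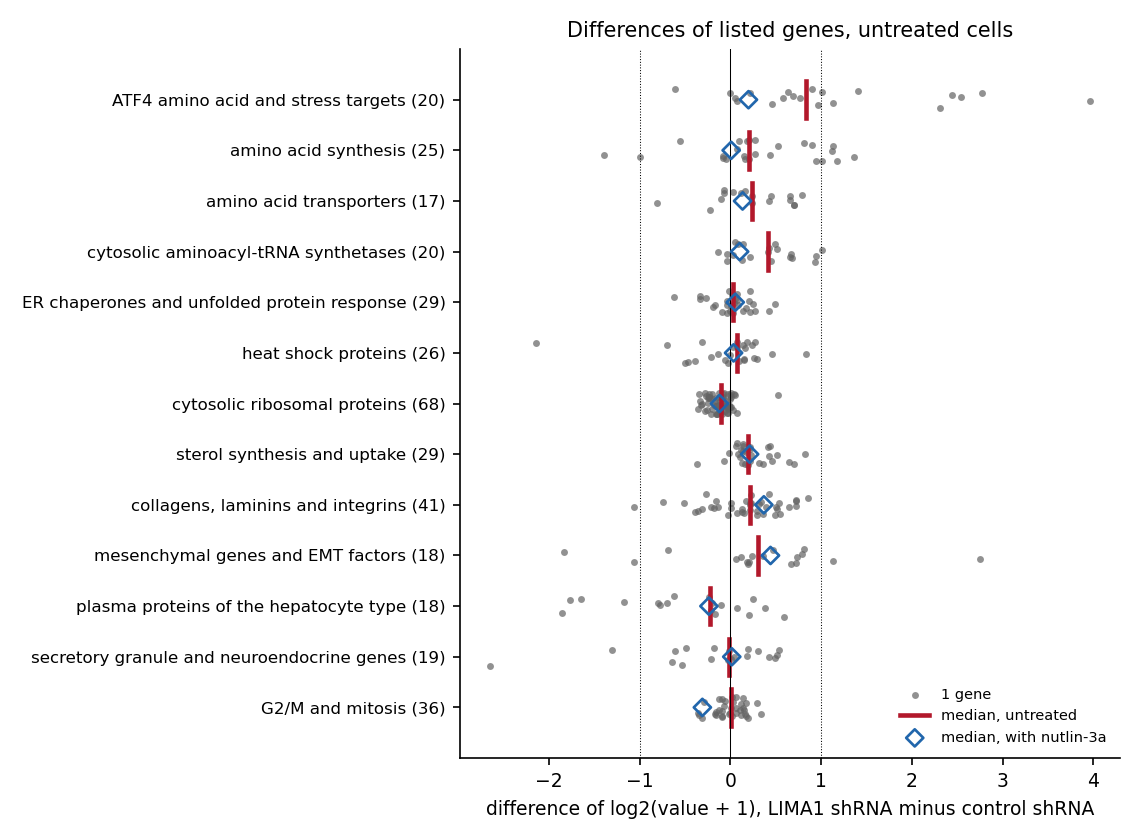
Differences in untreated cells (x, log2(value + 1) scale) of every measured gene of 13 lists (y, number measured in brackets). Each grey point is 1 gene, the red bar is the list's median and the blue diamond is its median in the nutlin-3a pair; for the ATF4 list these are 0.83 and 0.20, and for the ER chaperone list 0.02 and 0.05.

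The promoters of these genes were read to show where the element of each branch lies, in RefSeq sequences of 250 bases before to 50 bases after the gene's start on build GRCh38.p14. The C/EBP-ATF composite element was searched as TGATGNAA on both strands. It was present in 15 of the 66 amino acid branch genes with a promoter in the table (22.7%), out of 81 measured. It was present in 154 of 9740 measured genes (1.58%) and in 1003 of all 27305 promoters in the table (3.67%). The lists hold genes taken as targets of this branch, so the higher share describes the lists and not the difference between the libraries. The 15 had a median difference of 0.65, with 4 called higher and 0 lower. The 51 without a match had a median of 0.22, with 9 higher and 1 lower. DDIT3 and TRIB3 were not among the 15 genes with a match. Outside the amino acid and ER lists, the 138 measured genes with a match had a median of 0.03, like all measured genes (0.03). The higher median was thus seen within the lists only. The synthesis enzymes had a promoter for only 18 of 25 genes, too few for a share of their own. The ER stress element, searched on both strands as CCAAT followed after 9 bases of any kind by CCACG, was present in 22 of all 27305 promoters (0.0806%), in 0 of the 66 and in 7 of 27 ER genes (25.9%), whose median difference was 0.07. Matches are letters in a window and not sites shown to be bound. Stretches of 5 amino acid branch promoters and 3 ER promoters follow, on the gene's strand from 5′ to 3′, with the match in capitals (in its reverse complement where it opens with TT or CGTGG); the differences of these 8 genes are those given in the paragraphs above.
CHAC1, chr15:40953246-40953285: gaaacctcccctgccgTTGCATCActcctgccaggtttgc
ASNS, chr7:97872453-97872492: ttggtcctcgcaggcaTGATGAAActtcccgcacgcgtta
BCAT1, chr12:24949126-24949165: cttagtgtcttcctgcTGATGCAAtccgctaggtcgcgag
AARS, chr16:70289670-70289709: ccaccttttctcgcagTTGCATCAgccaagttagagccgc
ATF3, chr1:212565200-212565239: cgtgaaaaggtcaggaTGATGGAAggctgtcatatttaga
HSPA5, chr9:125241375-125241425: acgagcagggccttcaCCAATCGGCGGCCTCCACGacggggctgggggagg
CALR, chr19:12938368-12938418: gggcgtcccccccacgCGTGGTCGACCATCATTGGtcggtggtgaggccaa
XBP1, chr22:28800587-28800637: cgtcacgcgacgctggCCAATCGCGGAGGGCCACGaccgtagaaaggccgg
The element of CHAC1 begins 209 bases before the start, that of ASNS 68, of BCAT1 48, of AARS 187 and of ATF3 191; a match was thus present in the gene with the widest difference of the branch and also in genes that were not called.

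The median of 35 measured p53 target genes was 0.12, and the 3 called ones, SESN2 (which the ATF4 list shares), PMAIP1 and ALOX5, were all higher. Over all measured genes 0.888% were called higher. PMAIP1, the BH3-only protein NOXA, was at 251 and 708 untreated and at 367 and 526 with nutlin-3a. The lipoxygenase ALOX5 was at 19.8 and 41.6, and at 341 and 854 with nutlin-3a. Below the size of a call, the secreted factor GDF15 was at 370.4 and 692 (0.90) and BBC3, the BH3-only protein PUMA, at 155 and 269 (0.80). CDKN1A, the cell-cycle inhibitor p21, was at 1066 and 1178 and MDM2 at 1844 and 1857; both were picked after their values were seen. Genes of mitosis (36 measured, median 0.01) and of S phase (42 measured, median 0.11) had 0 called in untreated cells.

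Several ligands that immune cells read were higher. ULBP1, a ligand of the activating receptor NKG2D, was at 61.3 and 279 untreated, 4.55-fold higher (3.47 to 6.06), and at 29.8 and 56.8 with nutlin-3a. Of the 6 measured NKG2D ligands it was the only one called, against 0.888% of all measured genes called higher. ULBP2 lay on the other side at -0.90. This list was chosen after values were seen. In the TNF family 2 of 16 measured genes were called higher and another 2 were called lower, against 0.888% and 1.82% of all measured genes. The ligands CD70 and TNFSF9 were higher by 2.92 and 2.17, the receptor CD40 was at -1.29 and the ligand TNFSF12, with shared reads, at -1.06. All 4 kept their sign and stayed past 1 in the nutlin-3a pair, at 2.39, 1.98, -1.43 and -1.04.

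Secreted signals went both ways. The chemokines that share the receptor CXCR2 lie close together on chromosome 4, near the EGF-family ligand EREG. The 6 measured genes picked there by name (CXCL8, CXCL1, CXCL5, CXCL3, CXCL2 and EREG) all lay above 0, with a median of 0.67. Other genes between them were not included. CXCL3 was called, at 72.6 and 150.4, and CXCL5 was at 11670.4 and 16519. With nutlin-3a the median of these 6 was 0.14 and CXCL2, which has shared reads, was at -0.21. These 6 genes were chosen after their values were seen. Some other secreted factors were lower. CCL2 stood at 56.6 and 15.8 and the interleukin IL11 at 73.5 and 19.8. The insulin-like growth factor binders IGFBP3 and IGFBP7 (the second with shared reads) were at -0.60 and -1.31. The whole list of 26 inflammatory and secreted factors had 1 higher, 3 lower and a median of 0.05. All measured genes had 0.888% higher, 1.82% lower and a median of 0.03. CCL2 and IL11 differed by -1.45 and -2.18 in the nutlin-3a pair.

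DKK1, a secreted Wnt antagonist, was at 8720.0 and 3364 untreated, 2.59-fold lower (2.49 to 2.70), and at 9408 and 4397 with nutlin-3a. It is 1 of the 2 called genes with a mean of 5000 or more; the other is CLDN2, which encodes a claudin of leaky tight junctions, at 10208 and 4639.9. The Wnt receptor FZD8 was at -1.26. The receptor FGFR1 was at -1.03, and ERBB3, with 1541 and 792, at -0.96 was just short of a call. Follistatin, FST, which traps activin, and the related FSTL1 were at -1.07 and -1.06. In the Notch list HEY1 was higher by 1.43 and its relative HEYL was at -1.01. The growth factors NRG1, PDGFC and VEGFA lay at 0.94, 0.86 and 0.84, below the size of a call.

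Several secreted proteins typical of liver cells were lower. All 3 fibrinogen chains were lower without reaching a call: FGA was at 17419 and 10005, FGB at 22588 and 14702 and FGG at 16747 and 10327. In the nutlin-3a pair the 3 differences were -0.58, -0.62 and -0.65, close to the -0.80, -0.62 and -0.70 of the untreated pair. The retinol carrier RBP4 was at 296 and 81.1 and at 279 and 79.3 with nutlin-3a. The clotting factors F2 (prothrombin) and F7 were at -1.77 and -1.17. Of 18 measured plasma protein genes 4 were lower, 0 higher and 5 above 0, while 1.82% of all measured genes were lower. The median of the 18 was -0.22 untreated and -0.24 in the nutlin-3a pair. The list was chosen after values were seen, as were FGG and HNF4A, a transcription factor of liver and gut, which was at 1371 and 900.5. Not every liver-type gene was low: CPS1, the first enzyme of the urea cycle, was at 15270.1 and 23829.7, and at 15134 and 23779 with nutlin-3a.

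CHGB, a granin that is stored in secretory granules, was lower 6.29-fold (5.49 to 7.22), at 1524 and 242 untreated and 1629 and 251 with nutlin-3a. The pairs agree to within counting error, at -2.65 and -2.69. CPE, the granule enzyme that trims prohormones, was at 265 and 107 untreated but at 686 and 694 with nutlin-3a, so its difference was present in 1 pair of libraries only. SYT1, a calcium sensor of vesicle release, was on the other side at 0.54. The list of 19 secretory granule genes had a median of -0.01. The neuropeptide Y receptors NPY1R and NPY5R, a list chosen after values were seen, were at -1.15 and -2.15, and NPY6R was at 0.90.

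Matrix and mesenchymal genes tended upward without moving as 1 block. Of 18 measured mesenchymal genes 15 lay above 0. Their median was 0.30, and 0.44 in the nutlin-3a pair. In untreated cells 2 were called in each direction, against 0.888% higher and 1.82% lower over all measured genes. TNC, the matrix protein tenascin-C, was at 18.9 and 133 and at 9.93 and 70.8 with nutlin-3a. FBN2, a fibrillin, was higher by 1.14, and fibronectin, FN1, at 7029.9 and 12371, lay at 0.82. SNAI1, a repressor of epithelial genes, went the other way at 66.0 and 17.8, as did FSTL1. Collagen, laminin and integrin genes had a median of 0.21 over 41 genes. Among these 41, 0 were higher and 1 was lower, against the same 0.888% and 1.82%. COL7A1 was at 0.85 and COL17A1 at -1.06. Markers of fibroblasts were not higher with them: COL1A1, COL3A1 and LUM were lower in the LIMA1 shRNA library. DCN was at 0.94 with control shRNA and 0 with LIMA1 shRNA, both under the floor given above, so no direction is read from it. The summed level of these 4 markers was 68.3 with LIMA1 shRNA against 133 with control shRNA. Their part in these results was not tested.

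Junction and keratin genes differed 1 by 1. EPCAM, an epithelial adhesion molecule, was at 229 and 82.1 untreated and at 111 and 31.1 with nutlin-3a. CDH6 was higher by 1.12, N-cadherin, CDH2, lay at 0.79 and DSC2, a desmosomal cadherin, at 0.83. E-cadherin, CDH1, one of the epithelial markers and picked after its values were seen, was at 2603 and 2464. The nectin PVRL1, a junction receptor, was at 729.6 and 219.7. The list of 31 measured genes had 1 higher, 2 lower and a median of 0.16, against 0.888%, 1.82% and 0.03 over all measured genes.

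Actin-binding genes other than LIMA1 were mostly near 0. Among 42 measured LIM-domain and actin-binding genes the only called ones were LIMA1 and ABLIM3. Of all measured genes 0.888% were higher and 1.82% lower. ABLIM3, an actin-binding LIM protein, was at 51.8 and 108 untreated and at 66.5 and 234 with nutlin-3a. PDLIM2 was at -0.91. Filamin A, FLNA, an actin cross-linker, was at 30201 and 41904 and non-muscle myosin MYH9 at 6163 and 9099, with 0.42 and 0.53 in the nutlin-3a pair against 0.47 and 0.56. Smooth muscle actin, ACTA2, which has shared reads, was at -0.52. Villin, VIL1, was at 419 and 182 and the brush border myosin MYO1A at 449.6 and 139.5. The formin DAAM2, which has shared reads, was higher by 1.36. Targets of serum response factor, among them FLNA, MYH9 and ACTA2, had 13 of 25 measured genes above 0, and targets of YAP/TAZ 16 of 26, with medians of 0.03 and 0.11; of these, VIL1 in the first list was the 1 called gene. CTGF, a YAP/TAZ target, was at -0.77 while ANKRD1, another, was at 0.84.

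Enzymes of lipid and sugar chemistry showed small shared shifts and a few wide ones. Sterol synthesis and uptake genes had 0 of 29 called, yet 26 lay above 0, with a median of 0.20, and 0.21 in the nutlin-3a pair. HMGCS1, an early enzyme of the pathway, was at 2419.7 and 4289. In fatty acid metabolism ACSL4, which activates arachidonic acid, was higher by 1.12 (1187 against 2583), and FASN and SCD were at 0.64 and 0.54. Some glycan enzymes differed widely, in both directions. ST6GAL2, which adds sialic acid to glycans, was at 829 and 146 and at 1016 and 249.8 with nutlin-3a. ST3GAL1, which adds sialic acid to O-glycans, was higher by 1.32 (986 against 2459.9). SULT2B1, a sulfotransferase of sterols, was at 435 and 112. The aldo-keto reductase AKR1C4 was higher by 1.63, the only call among 40 NRF2-type genes, where the heme oxygenase HMOX1 was at -0.83. Of all measured genes 0.888% were higher and 1.82% lower.

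The 2 collagen prolyl 3-hydroxylase genes LEPREL1 and LEPREL2, of 3 measured, were at -1.42 and -1.15. The serpins SERPINB3 and SERPINB4 are near-identical neighbours whose reads are hard to separate; they stood at 11.3 and 55.4 and at 23.6 and 125, while SERPINB11 was at -1.19. Both lists were chosen after values were seen.

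RNA-level regulators had a reciprocal pair. PTBP2, the neuronal relative of the splicing repressor PTBP1, was at 176 and 653 untreated and 128 and 402 with nutlin-3a. PTBP1, which is known to repress PTBP2 through splicing, was at 6785 and 4905, a difference of -0.47 (-0.52 to -0.42), and of -0.51 with nutlin-3a. Whether the 2 differences are linked was not tested. Genes that process short hairpins and microRNAs had 1 of 14 called, AGO4, which was lower at 235 and 108. Of all measured genes 1.82% were lower. The oncogenic zinc finger gene MECOM was higher by 1.39, and AHCYL2, a relative of S-adenosylhomocysteine hydrolase, by 1.76 (923 against 3139). NEFL, a neurofilament chain, and DNM3, a neuronal dynamin, were higher by 1.48 and 1.52. Lower genes without a list were the kinase PSKH1 (709 against 195), DNER, a Notch-like neuronal receptor (255 against 81.1), the ubiquitin ligase NEURL1B (-1.53), and the doublecortin-domain genes DCDC5 and DCDC2 (-1.64 and -1.73, the second with shared reads).

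Gains and losses in normalised counts depend on gene length and level as well as on the ratio, so those that follow are given gene by gene. PKM, the pyruvate kinase of glycolysis, gained 25267 normalised counts at a difference of 0.36, and ferritin light chain, FTL, gained 11576 at 0.17. ALDH1A1, a retinal dehydrogenase, lost 19919 at -0.14. TGM2, a protein cross-linking enzyme, was at 23289 and 13319.9, and IGFBP4 was at -0.45. All of these had the same sign with nutlin-3a.

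Cytosolic ribosomal protein genes, which code for the parts of the ribosome, lay slightly low as a body. Only 8 of 68 measured genes were above 0, 0 were called, and the median was -0.11, with -0.12 in the nutlin-3a pair. RPL37 and RPL37A were at -0.33 and -0.32, and RPL7 was the highest at 0.53. Short messages as a whole also lay lower: with measured genes divided into 4 classes of like size, the median was -0.02 for the shortest transcripts and 0.08 for the longest, and it was 0.09 at the lowest and -0.02 at the highest GC content. The part of length in the ribosomal values was not tested.

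Neighbouring genes were compared in 10989 overlapping windows of 15 measured genes. Window medians ran from -0.48 to 0.49, with 95% of them between -0.14 and 0.19. The lowest window led to the run of 16 measured zinc finger genes between CAPNS1 and SIPA1L3 on chromosome 19, which was chosen after these values were seen, so its counts are a description. Of the 16 genes 4 were lower (25%) and 12 lay below 0, with a median of -0.45. Over all measured genes 1.82% were lower and 5664 of 12503 lay below 0. ZNF529 was at 81.1 and 28.7, ZNF585B at 108 and 35.6, ZNF607 at 106 and 38.6, and ZNF260, which has shared reads, at 443 and 191. The nutlin-3a pair, which shares no library with this one, had 5 lower and 12 below 0, with a median of -0.50. Among 121 other zinc finger genes of chromosome 19 there were 0 lower and 62 below 0, and among 223 on other chromosomes 1 was lower.

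**Figure D4:**
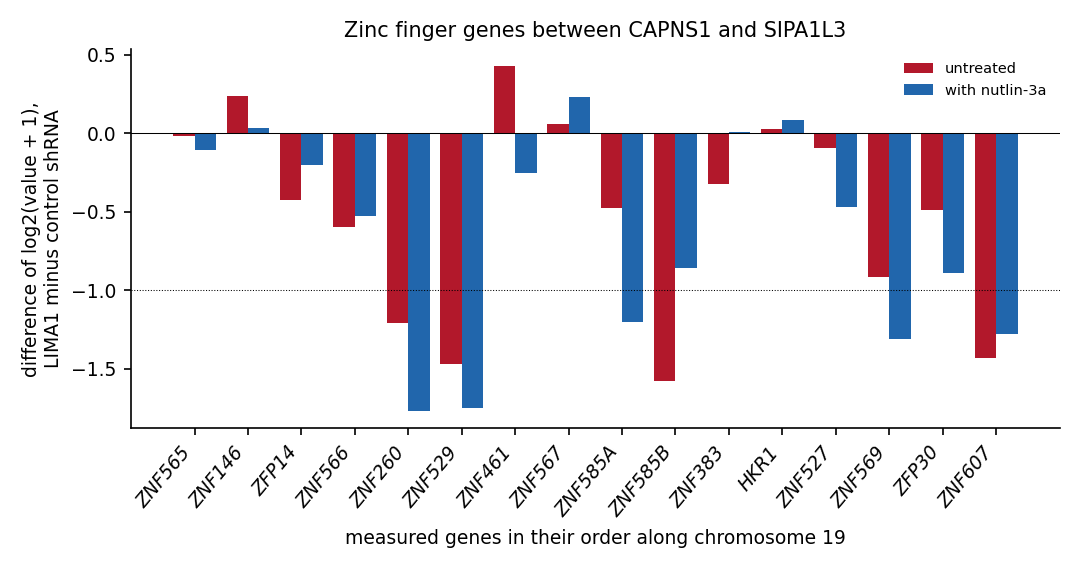
Differences on the log2(value + 1) scale (y) of the 16 measured genes between CAPNS1 and SIPA1L3 in their order along chromosome 19 (x), untreated in red and with nutlin-3a in blue; the dotted line marks -1. ZNF260, ZNF529 and ZNF607 lie past -1 in both pairs, while ZNF146, HKR1 and ZNF567 lie above 0 in both.

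Gene models whose names start with lnc- made up 14 of the 111 higher and 19 of the 228 lower genes, and 572 of the 12503 measured. Noncoding genes with other names are not in these counts. lnc-IGFL3-2 was at 102 and 328 untreated and at 2123 and 6914 with nutlin-3a, so its ratio was alike at very different levels. lnc-MRPS25-1 was at 1249.7 and 459 and stayed low with nutlin-3a, at 1168 and 258. lnc-TPTE-3 was at 6134 and 2729 untreated but at 4144 and 5449 with nutlin-3a, where the direction was the other one.

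The nutlin-3a libraries give a second pair with the same hairpins. Among all measured genes 142 (1.14%) were higher and 244 (1.95%) lower in that pair. Of the 111 genes higher in untreated cells 51 (45.9%) were also higher there, 6 were lower and 54 were neither; of the 228 lower genes 119 (52.2%) were also lower and 5 were higher. Shared reads went with fewer repeats: 7 of 30 higher genes with shared reads (23.3%) were called again, against 44 of 81 without (54.3%), and among lower genes 19 of 44 (43.2%) against 100 of 184 (54.3%). The genes without include 6 higher and 8 lower ones that could not be checked; among those checked and whole, 42 of 75 higher (56%) and 96 of 176 lower genes (54.5%) were called again. The 81 genes of the amino acid branch had 3 higher and 2 lower with nutlin-3a, and a median of 0.09 against 0.42 untreated, whereas the sterol list, the plasma protein list and the zinc finger run had medians that were alike in both pairs (0.20 and 0.21, -0.22 and -0.24, -0.45 and -0.50). The difference between the pairs was not tested. With 1 library per group, a difference between culture dishes and a difference made by nutlin-3a cannot be told apart.

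**Figure D5:**
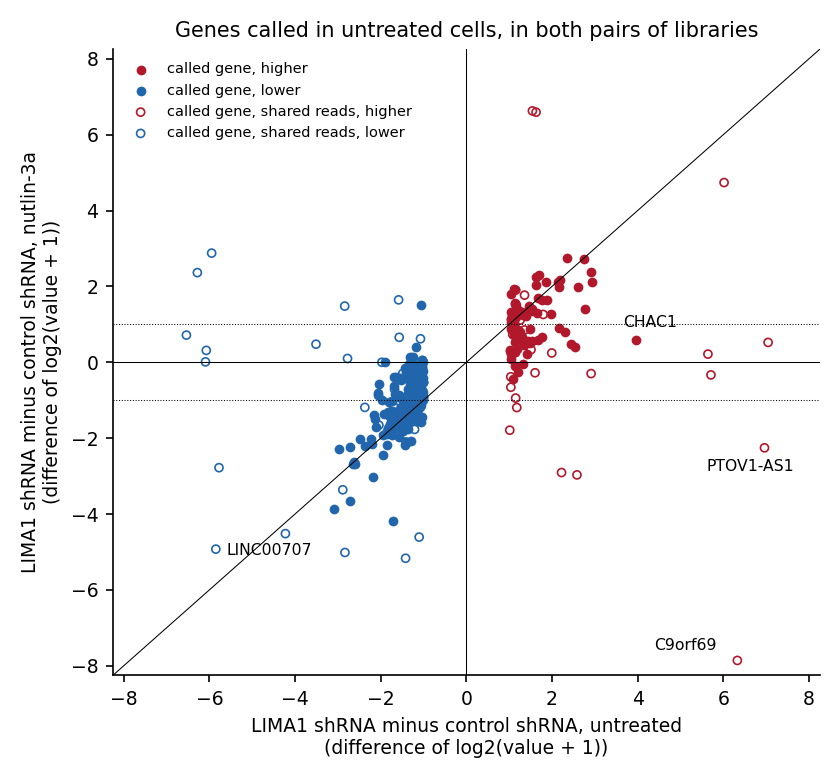
Differences of the 111 higher and 228 lower genes of untreated cells (x) against their differences in the nutlin-3a pair (y), both on the log2(value + 1) scale, with a line of equality and dotted lines at 1 and -1. Open circles are genes with shared reads, among them C9orf69 at 6.33 and -7.86; CHAC1 lies at 3.96 and 0.59.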

How the data were processed

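The authors deposited 1 signal value per gene model and library. Per the submitters' processing notes, which give no roles, Cuffnorm 2.2.1, Bowtie2 2.0.12 and bcl2fastq 1.8.3 were used with build hg19. The annotation used was not named in any source used here. From the values themselves, 85.5% to 86.3% of those between 0.5 and 1000 fragments lay within 0.1 of a whole multiple of 1 step per library, under the 95% set for a count test, so none was run. Differences were taken on log2(value + 1), with a pseudocount of 1 and a minimum mean of 30, a scale on which low genes appear to change less than they did. Groups came from the sample titles. With 1 library per group there is no replicate, test or p-value.

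The 4 libraries held 15.2 M to 16.7 M fragments, so precision is close in all. Intervals are exact Clopper-Pearson at 95% and, like the floor of 3 fragments, cover counting error only, as reads carry no molecular identifiers. The members and gene lists were chosen with earlier results of these data known; 5 of the 46 lists were added after values were seen. Genes named are LIMA1, the 15 highest and 15 lowest with a mean of at least 150, the 8 largest gains and losses in counts, the 4 highest and lowest lnc- models with that mean, up to 5 members of each list with the largest differences plus all called members, and any member of the ATF4 and ER lists; others are marked as picked after their values. Some genes named by this rule are not reported here. Transcript lengths, GC content and gene order came from GENCODE 29, which had 11321 of 12503 genes (90.5%); its build differs from the files', so its coordinates are not printed. Promoters came from a RefSeq table on GRCh38.p14, matched by symbol or gene identifier. The calling step was tested on simulated counts. Alternatives were other pseudocounts, filters, scalings and sizes. Python 3.11.15, numpy 2.4.6, pandas 2.3.3, scipy 1.17.1 and matplotlib 3.10.9 were used.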

Additional observations from a re-analysis of the deposited data

Results flagged for a closer look

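In 11 genes the untreated pair was called one way and the nutlin-3a pair the other, and 10 of these have shared reads. The difference between the pairs was not tested. Untreated and nutlin-3a differences were 6.33 and -7.86 for C9orf69, 6.96 and -2.26 for PTOV1-AS1, 2.58 and -2.97 for SMIM6, and 2.22 and -2.91 for LOC100506844. Among noncoding models that were higher untreated, lnc-SEC14L1-1 was at 1.01 and -1.79 and lnc-USP34-1 at 1.18 and -1.19. Those lower untreated were SCAMP1-AS1 (-6.28 and 2.36), DYNLL1-AS1 (-5.95 and 2.88), lnc-RASL11B-3 (-2.84 and 1.48), LOC102724316 (-1.58 and 1.65) and lnc-AC127496.3-1 (-1.06 and 1.51), the last being the gene without shared reads.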

How the results depend on the processing

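The counts of called genes moved with the filter and the pseudocount, as these decide how many low genes enter. With a pseudocount of 30 there were 57 higher and 101 lower genes, with a mean of at least 150 there were 42 and 56, with no filter 1223 and 1759, and with a size of at least 2 there were 23 and 33. Genes called in both pairs numbered 26 higher and 54 lower with a pseudocount of 30, 21 and 35 with a mean of at least 150, and 337 and 507 with no filter; these overlap counts were added after seeing the data. LIMA1 moved from -2.59 to -2.18 with a pseudocount of 30. Upper-quartile scaling (97 higher, 263 lower), equal totals (100 and 259), a pseudocount of 5 (101 and 201), and leaving out lnc- models (97 and 209) or genes with shared reads (81 and 184) stayed within 1.5 times. The scalings shift the LIMA1 shRNA library by -0.05 on the log2 scale, under 0.1, and turn the sign of 12 and 11 of the 46 list medians, all of them close to 0. Of 85 named genes called, 80 stayed called with a pseudocount of 5 or with either scaling and 66 with a pseudocount of 30; 0 of these reversed. No paired analysis was possible because each group has 1 library and no result comes from a test. The depth limits genes with a mean under 150, which held 69 of the 111 higher and 172 of the 228 lower calls.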
